A study of Mus musculus with 29 samples.

Results

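The 4 connexin genes Gja1, Gjb2, Gjb5 and Gjb6 were followed in 29 RNA-seq libraries of mouse skin. They were chosen by gene symbol, are 4 of the 20 connexin genes listed in each deposited table, and were each found in all 3 tables, among 24543 genes for day 3 epidermis, 24453 for day 3 dermis and 24081 for week 1. Values are RPKM, reads scaled to transcript length and to the size of the library, so that levels can be set side by side between genes of different length.

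The mice were adults (postnatal day 42 to 46) of mixed background. The icKO mice were made to lose Dlx3, a homeobox gene active in the upper epidermis and in hair follicles, through a Cre induced by tamoxifen. That Cre was driven by the keratin 14 promoter, which is active in the basal keratinocytes of epidermis and hair follicles, so the deletion is aimed at those cells and not at the rest of the skin. The controls are called WT in the labels, and no source used here says whether they carried Cre or floxed Dlx3. WT and icKO samples alike are dated from tamoxifen treatment. Epidermis 3 days after tamoxifen gave 4 WT and 4 icKO libraries without inhibitor (vehicle, per the file headers) and 3 WT and 4 icKO libraries with an unnamed inhibitor of STAT3 (STAT3i), the signal-dependent factor downstream of many cytokine receptors. Dermis at day 3 gave 3 WT and 3 icKO libraries, and at 1 week each tissue gave 2 WT and 2 icKO libraries. Per the file headers, the week 1 mice received tamoxifen on the skin where epidermis was taken and by intraperitoneal injection where dermis was taken, so tissue and route cannot be told apart there.

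Connexins are the subunits of gap junctions, the channels that pass ions and small molecules directly between neighbouring cells. A hexamer of connexins in one membrane docks with a hexamer of the next cell, and the connexins present decide what passes and which cells can couple. In epidermis, Gja1 (connexin 43) is the abundant connexin of the basal and spinous layers, while Gjb5 (connexin 31.1) belongs to stratified squamous epithelium. Gjb2 (connexin 26) and Gjb6 (connexin 30) are scarce in the resting epidermis between hair follicles, are found in the inner ear and in hair follicles, and are known to be raised in wounded and hyperproliferative epidermis. In humans, variants of both genes cause deafness and inherited skin disease.

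Gjb2 and Gjb6 are neighbours on mouse chromosome 14 (GRCm38.p6, the assembly also called mm10). Gjb2 lies on the minus strand at chr14:57098602-57104702 and Gjb6 on the minus strand at chr14:57123301-57133611, 18.6 kb apart with no annotated gene between them. Gjb5 lies on the minus strand at chr4:127354809-127358164, and Gja1 on the plus strand at chr10:56377300-56390419. All 4 are protein-coding genes. The 250 bases before the annotated start of each gene are shown because the genes moved in different directions after loss of a homeobox factor and because neighbours on chromosome 14 moved together. They are RefSeq sequences of GRCm38.p6, matched by symbol for 4 of 4 genes, 5′ to 3′ on the gene's own strand, from chr10:56377050-56377299, chr14:57104703-57104952, chr14:57133612-57133861 and chr4:127358165-127358414. Capitals mark letters of the motifs named below.
Gja1: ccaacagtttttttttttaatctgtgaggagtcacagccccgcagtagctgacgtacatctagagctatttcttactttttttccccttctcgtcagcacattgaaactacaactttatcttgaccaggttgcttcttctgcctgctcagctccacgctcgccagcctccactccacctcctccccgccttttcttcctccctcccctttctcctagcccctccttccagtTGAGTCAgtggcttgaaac
Gjb2: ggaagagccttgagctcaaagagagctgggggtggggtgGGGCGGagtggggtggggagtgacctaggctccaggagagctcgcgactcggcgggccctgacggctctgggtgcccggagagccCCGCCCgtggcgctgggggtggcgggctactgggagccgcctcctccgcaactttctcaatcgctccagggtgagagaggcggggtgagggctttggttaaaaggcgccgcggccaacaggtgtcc
Gjb6: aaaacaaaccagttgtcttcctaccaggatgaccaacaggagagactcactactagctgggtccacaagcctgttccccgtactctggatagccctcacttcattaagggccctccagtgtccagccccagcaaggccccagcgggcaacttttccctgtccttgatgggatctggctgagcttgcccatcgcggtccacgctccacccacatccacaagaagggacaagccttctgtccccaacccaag
Gjb5: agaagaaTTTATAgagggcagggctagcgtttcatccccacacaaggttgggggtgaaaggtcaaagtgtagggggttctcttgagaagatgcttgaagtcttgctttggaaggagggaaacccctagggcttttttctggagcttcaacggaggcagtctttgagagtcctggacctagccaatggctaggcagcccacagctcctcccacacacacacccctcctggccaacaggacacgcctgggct
Both strands were searched for 5 motifs. The homeobox core bound by Dlx factors (TAATTA or TAATTG) was in none of the 4 windows and in 11.3% of the 32851 promoter windows of the same length. The STAT motif TTCNNNGAA was in none of the 4 and in 7.0% of all windows. The AP-1 motif TGANTCA occurred once, 19 bases before the start of Gja1, and in 6.7% of all windows. The GC box GGGCGG occurred at 2 places before Gjb2, in no other of the 4, and in 32.7% of all windows. The TATA letters TATAAA occurred on the reverse strand of Gjb5, 243 bases before its start, and in 12.4% of all windows. The Gjb2 window was 69.2% G and C against a median of 52.4% over all windows, and the Gja1, Gjb6 and Gjb5 windows were 50.0%, 56.8% and 54.4%. These matches describe letters in short windows and no binding was measured.

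Several facts about the libraries bear on what follows. Depth was 48942701 to 70291550 alignments per library for day 3 epidermis, 10137237 to 37252138 alignments for day 3 dermis and 37271189 to 57296317 reads at week 1, and which of the instruments used sequenced which library is not stated. In day 3 epidermis without inhibitor, Dlx3 was at 3.04, 0.950, 7.13 and 7.21 RPKM in WT libraries a to d and at 1.29 to 2.22 RPKM in the icKO libraries, so the library labelled WT b had less Dlx3 than any icKO library without inhibitor. The icKO library c held both Xist and Ddx3y, transcripts of female and male mice, at 7.20 and 5.88 RPKM, against 13.1 to 18.7 and 9.13 to 11.3 RPKM where 1 of them was found alone. Sex was unequal between genotypes in day 3 epidermis: Ddx3y was found in 3 of 4 WT libraries without inhibitor and in all 3 with it. In contrast, 3 of 4 icKO libraries without inhibitor and all 4 with it had Xist alone. The icKO libraries a and b differed by a standard deviation of 0.063 in log2 over 5960 genes, against 0.225 to 0.345 for the other pairs of that group, and icKO libraries a and d with the inhibitor by 0.078, against 0.264 to 0.309. In day 3 dermis the libraries labelled icKO a and b held more Dlx3 (64.3 and 65.9 RPKM) than WT libraries (2.19 to 20.5 RPKM). Only WT library c held Ddx3y there (8.54 RPKM), and the other day 3 dermis libraries held Xist. For 2 of the 4 week 1 epidermis libraries, 1 titled WT and 1 titled icKO, the genotype field gives the other genotype; the titles and the file headers were followed. By that grouping Dlx3 was lower in icKO at week 1, with icKO epidermis at 1.46 and 1.82 RPKM of Dlx3 against 3.17 and 5.79 in WT, and icKO dermis at 0.140 and 0.167 against 2.81 and 5.21. WT dermis library a held Xist (10.7 RPKM), and all other week 1 libraries held Ddx3y. No sex term was fitted for day 3 dermis or for week 1. Cell type markers did not separate the labelled tissues at day 3: mean log2 levels of 5 basal keratinocyte genes were 7.27 to 8.08 in epidermis and 7.22 to 7.79 in dermis, and epidermis held skeletal muscle genes at 9.36 to 11.1. Week 1 epidermis held skeletal muscle genes at 0.82 to 2.20 and endothelial genes at 0.09 to 0.54. In bulk tissue, fewer cells of a type and less RNA per cell cannot be told apart.

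In day 3 epidermis without inhibitor, Gjb2 and Gjb6 rose and Gjb5 fell in icKO libraries, while Gja1, the most abundant of the 4, did not pass the test. Of the 4 genes, 3 passed, with 2 higher and 1 lower, against 12.8% of the 13095 genes tested (9.12% higher and 3.70% lower, that is 1194 and 485 genes, or 832 and 1030 after quantile normalization). The test was limma on log2(RPKM + 1), with p adjusted by the Benjamini-Hochberg method over all tested genes and 0.05 as the threshold; changes are given on this scale, which understates those of low genes.

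Gja1 was at 80.8, 60.5, 60.0 and 83.1 RPKM in WT libraries a to d, and at 86.4, 87.0, 76.4 and 82.2 RPKM in icKO libraries a to d. The WT libraries fell into a higher and a lower pair, and the icKO values overlapped the higher pair. The difference was 0.24 ± 0.10 (SE) on the log2 scale, with an adjusted p of 0.143 in limma.

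Gjb5 was at 25.4, 19.6, 45.5 and 36.9 RPKM in WT libraries and at 13.7, 13.2, 18.4 and 15.6 RPKM in icKO libraries. The groups did not overlap, although WT library b lay just above icKO library c. Gjb5 fell by 0.96 ± 0.20 on the log2 scale, to 0.514 of the WT level (adjusted p = 0.0118, limma). This call was lost in a fit of the 8 compared libraries alone (adjusted p = 0.0855) and, in alternatives chosen after seeing the data, kept at 0.0464 with icKO libraries a and b averaged but lost at 0.101 with the closest pair of each of 3 groups averaged.

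Gjb2 was at 2.84, 10.6, 2.05 and 2.1 RPKM in WT libraries and at 34.0, 34.8, 15 and 32.9 RPKM in icKO libraries. WT library b stood above the other WT libraries and icKO library c below the other icKO libraries, yet the groups did not overlap. Gjb2 rose by 2.66 ± 0.39 on the log2 scale, or 6.34-fold (adjusted p = 0.0029, limma). Only 0.229% of tested genes had a larger rise. The adjusted p was 0.0162 with icKO libraries a and b averaged and 0.0565, which missed the threshold, with the closest pair of each of 3 groups averaged. With WT library b and icKO library c left out for their Dlx3 and sex transcripts, also an alternative chosen after seeing the data, the change was 3.40 with an adjusted p of 1.66e-06. These were the highest WT and the lowest icKO library for Gjb2, so leaving them out had to widen the difference. That fit adds no support.

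Gjb6 was at 0.595, 1.80, 0.411 and 0.307 RPKM in WT libraries and at 6.28, 7.12, 2.83 and 7.08 RPKM in icKO libraries. The order of the libraries was nearly that of Gjb2, with WT library b and icKO library c again nearest to each other. Gjb6 rose by 1.95 ± 0.28 on the log2 scale, or 3.86-fold (adjusted p = 0.00251, limma), and 0.435% of tested genes had a larger rise. It met the filter of 1 RPKM through its icKO libraries, the group in which it was higher, as only WT library b exceeded 1 RPKM in WT. For a gene this low the fitted size depends on the pseudocount, and with 0.1 RPKM in place of 1 the rise was 2.95 (adjusted p = 0.00267). Its call was kept with the closest pairs averaged (adjusted p = 0.0492) and without WT library b and icKO library c (change 2.45, adjusted p = 5.5e-06). Libraries WT b and icKO c were again the highest WT and the lowest icKO library, so leaving them out had to widen the difference. With a term for sex the changes of Gjb2, Gjb5 and Gjb6 were 2.76, -1.25 and 1.87, with adjusted p of 0.0262, 0.0288 and 0.0288. Within groups this term varied only through WT library c and through icKO library c, which was coded 0.5 for holding both sex transcripts. The adjustment rests on those libraries alone. With the mean level of basal keratinocyte genes as a covariate they were 2.65, -0.92 and 1.95. Hair shaft and sheath genes were at mean log2 levels of 2.71, 2.70, 1.90 and 0.36 in icKO libraries a to d and at 0.21 to 0.33 in WT libraries, with Gjb2 at 32.9 RPKM in icKO library d. The part of hair gene content in the connexin changes was not tested.

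**Figure D1:**
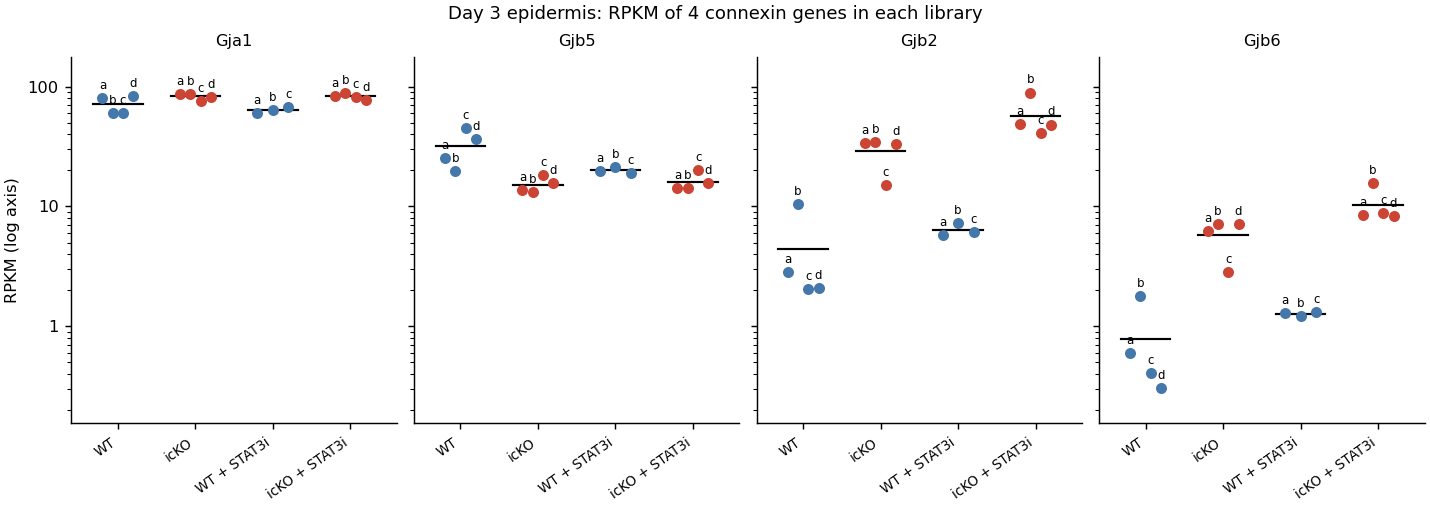
RPKM on a log axis for each gene in each day 3 epidermis library, with letters naming libraries, blue for WT, red for icKO and a black line at the arithmetic mean of the group. Gjb2 and Gjb6 lie higher in all icKO libraries than in the WT libraries of the same treatment, Gjb5 lies lower without inhibitor, and Gja1 stays between 60.0 and 89.2 RPKM throughout.

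With the STAT3 inhibitor, Gjb2, Gjb6 and Gja1 rose in icKO against WT epidermis, and Gjb5 did not pass the test. Of the 4 genes, 3 were called, all higher, against 34.0% of 13241 genes called and 19.9% called higher (14.1% lower). Gjb2 was at 5.73, 7.28 and 6.10 RPKM in WT and at 49.2, 89.4, 40.8 and 48.3 RPKM in icKO libraries, with a rise of 2.91 ± 0.42 (adjusted p = 0.000358, limma). The lowest icKO library held more than 5 times the RPKM of any WT library, and icKO library b stood apart at the top. Gjb6 was at 1.30, 1.21 and 1.32 RPKM in WT and at 8.55, 15.7, 8.80 and 8.26 RPKM in icKO libraries, with a rise of 2.27 ± 0.30 (adjusted p = 0.000199, limma), or 2.87 with a pseudocount of 0.1 RPKM. The inhibitor-treated libraries had hair genes at 0.25 to 0.30 in both genotypes. Only 1 of the 6 hair genes met the filter of 1 RPKM there, and the part of hair content in these changes was not tested. The calls of Gjb2 and Gjb6 held with the closest pairs averaged and with a sex term (adjusted p = 0.0458 for each, limma). In these 7 libraries sex and genotype cannot be told apart.

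Gja1 was at 60.8, 64.2 and 68.2 RPKM in WT and at 82.8, 89.2, 81.6 and 78.1 RPKM in icKO libraries with the inhibitor. The groups did not overlap, and the rise was 0.36 ± 0.11, or 1.28-fold (adjusted p = 0.0241, limma). This small change did not pass after quantile normalization (adjusted p = 0.22), with a sex term (0.111), with the keratinocyte covariate (0.136), with the closest pairs averaged (0.112), or without WT library a, WT library b or icKO library b of these groups (0.0619 to 0.0927). Gjb5 was at 19.6, 21.3 and 19.2 RPKM in WT and at 14.3, 14.2, 20.1 and 15.7 RPKM in icKO libraries, overlapping in icKO library c alone, with a difference of -0.31 ± 0.22 (adjusted p = 0.293). Keratinocyte genes also stood higher in these icKO libraries: the mean log2 level of 5 basal genes was 7.73 to 8.08 against 7.30 to 7.37 in WT, and that of 6 spinous and granular genes 8.24 to 8.58 against 7.42 to 7.45. The mean of 4 sebaceous gland genes was also higher, at 7.31 to 7.47 against 6.32 to 6.43, and that of 6 fibroblast genes lower, at 7.93 to 8.43 against 9.35 to 9.58. With the basal genes as a covariate, Gjb2 and Gjb6 changed by 3.05 and 2.25 and kept their calls. That covariate did not overlap between the genotypes in these libraries, so the fit cannot tell it apart from genotype here. The part of these differences in tissue content in the connexin changes was not tested.

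The effect of the inhibitor within a genotype passed the limma test for none of the 4 genes, although unadjusted p was under 0.05 for 2 of them in icKO (Gjb2 and Gjb6) and for 1 in WT (Gjb5). In icKO epidermis, where 5.56% of 13074 genes were called (2.81% higher and 2.75% lower), Gjb2 differed by 0.95 ± 0.39 (95% interval 0.10 to 1.79, adjusted p = 0.156) and Gjb6 by 0.75 ± 0.28 (0.15 to 1.34, adjusted p = 0.117), both toward higher levels with the inhibitor. Gja1 differed by 0.00 ± 0.10 and Gjb5 by 0.07 ± 0.20. In WT epidermis, where 18.8% of 13211 genes were called (10.9% higher and 7.86% lower, that is 1441 and 1039 genes, or 1412 and 1649 after quantile normalization), the differences were 0.70 ± 0.42 for Gjb2, 0.42 ± 0.30 for Gjb6, -0.58 ± 0.22 for Gjb5 (adjusted p = 0.0803) and -0.13 ± 0.11 for Gja1. These WT values rested on library b: with it and icKO library c left out, 3743 of 13152 genes were called, and with them 3 of the 4, Gjb2 at 1.15 (adjusted p = 0.00335), Gjb5 at -0.78 (0.00787) and Gjb6 at 0.67 (0.0183). With WT library b alone left out, Gjb2 (0.0151) and Gjb5 (0.0086) were called in WT, where 3614 of 13152 genes were, and Gjb2 was called in icKO epidermis (0.0491), where 928 of 13074 genes were. WT library b was the highest of its group for Gjb2 and Gjb6 and the lowest for Gjb5. Leaving it out therefore had to widen these differences in WT.

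The genotype effect was tested against itself with and without the inhibitor. In this interaction 2.14% of 13563 genes were called and none of the 4, with differences of 0.12 ± 0.15 for Gja1, 0.25 ± 0.58 for Gjb2, 0.65 ± 0.30 for Gjb5 and 0.32 ± 0.41 for Gjb6 (adjusted p = 0.204 to 0.824, limma; unadjusted p under 0.05 for 1, Gjb5). Of all genes, 0.730% or 99 were called higher and 1.41% or 191 lower, against 182 and 173 after quantile normalization. The intervals were wide, from -0.99 to 1.49 for Gjb2, so a sizeable difference in either direction was not detectable. Without WT library b the Gjb5 difference was 0.85 and passed (adjusted p = 0.0403), as did 1702 of 13543 genes, and without WT library b and icKO library c it was 0.94 (0.0317), with 1537 of 13514 genes called. For Gjb5, WT library b was the lowest of its group and icKO library c the highest, so leaving them out had to widen this difference.

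Day 3 dermis gave no call among the 4 genes, and 0 of the 13017 genes tested passed in limma (0%), with 1643 genes at an unadjusted p under 0.05. The libraries within a label differed more than the labels. Gja1 was at 54.7, 117 and 60.6 RPKM in WT libraries a to c and at 384, 323 and 48.2 RPKM in icKO libraries a to c. Gjb2 was at 19.6, 86.9 and 88.4 RPKM in WT and at 475, 360 and 48.2 RPKM in icKO libraries. Libraries labelled icKO a and b stood far above the rest for both genes and library c lay within or below the WT range. Gjb6 was at 4.43, 11.2 and 4.93 RPKM in WT and at 39.0, 28.9 and 10.5 RPKM in icKO libraries. Gjb5 was at 37.0, 32.4 and 20.2 RPKM in WT and at 32.7, 31.7 and 21.2 RPKM in icKO libraries, so it alone showed no such split.

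The differences were 1.31 ± 0.82 for Gja1, 1.90 ± 1.02 for Gjb2, 1.71 ± 0.54 for Gjb6 and -0.05 ± 0.28 for Gjb5 (adjusted p = 0.442, 0.413, 0.375 and 0.938, limma). Unadjusted, Gjb6 had a p of 0.0192 and the other 3 had p of 0.110 to 0.873. Without icKO library c, 3192 of 13391 genes tested were called, 1535 of them higher, and with them 3 of the 4, Gja1 at 2.26 (adjusted p = 0.0219), Gjb2 at 2.93 (0.0399) and Gjb6 at 2.24 (0.0247). Library c was the lowest icKO library for each of these, so leaving it out had to widen their differences. Hair shaft and sheath genes moved with these levels: their mean log2 level was 10.6 and 10.7 in icKO libraries a and b, 8.53 in WT library b, and 0.65 to 1.22 in the other 3. Of these, WT library c had hair genes at 0.66 and Gjb2 at 88.4 RPKM. The part of hair follicle content in these values was not tested.

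At 1 week, Gjb2 and Gjb6 rose in icKO epidermis and Gjb5 fell, and Gja1 did not pass. Of the 4 genes, 3 were called, 2 higher and 1 lower, against 55.3% of 11796 genes tested (11.7% higher and 43.6% lower, that is 1377 and 5147 genes, or 2357 and 2615 after quantile normalization). The median change of all tested genes was -0.50 here and -0.38 in week 1 dermis, and -0.05 and 0.00 after quantile normalization, so changes are to be read against those medians. Gjb2 was at 3.74 and 5.85 RPKM in WT and at 240 and 103 RPKM in icKO libraries. It became the highest of all 20 connexins in both icKO libraries, and the rise was 4.80 ± 0.44 on the log2 scale, or 27.8-fold (adjusted p = 0.00256, limma). Gjb6 was at 0.782 and 1.18 RPKM in WT and at 48.2 and 12.2 RPKM in icKO libraries, a rise of 3.69 ± 0.63 or 12.9-fold (adjusted p = 0.00792), and of 4.52 with a pseudocount of 0.1 RPKM. Its icKO libraries differed from each other more than those of Gjb2, and both were far above WT. Gjb6 met the filter of 1 RPKM through these icKO libraries, as 1 WT library lay below it.

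Gjb5 was at 72.6 and 65.0 RPKM in WT and at 6.13 and 3.60 RPKM in icKO epidermis. It fell by 3.61 ± 0.25 on the log2 scale, to 0.0821 of the WT level (adjusted p = 0.00179, limma), and 0.458% of tested genes had a larger fall. Gja1 was at 73.3 and 76.9 RPKM in WT and at 98.8 and 60.1 RPKM in icKO libraries, 1 above and 1 below WT, with a difference of 0.04 ± 0.26 (95% interval -0.64 to 0.72, adjusted p = 0.913). Leaving out any 1 of these libraries leaves 1 residual degree of freedom, with the spread set by the remaining pair alone. The standard deviation of the log2 difference was 0.666 for the icKO pair and 0.272 for the WT pair. With either WT library left out the calls were lost, and with either icKO library left out they were kept. Calls over all genes were lost and kept in the same fits. They depended on which pair set the spread and tell nothing particular to these genes. Without a WT library the changes were 4.53 and 5.06 for Gjb2, 3.55 and 3.84 for Gjb6 and -3.53 and -3.69 for Gjb5. Over all such fits they ranged from 4.20 to 5.40, from 2.75 to 4.64 and from -3.92 to -3.29. Markers of upper epidermal layers were lower in icKO epidermis (mean log2 of 6 spinous and granular genes 7.23 and 5.12, against 8.95 and 9.13), while basal genes stood at 7.95 and 8.03 against 8.34 and 8.18. The part of these upper-layer differences in the Gjb5 change was not tested.

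**Figure D2:**
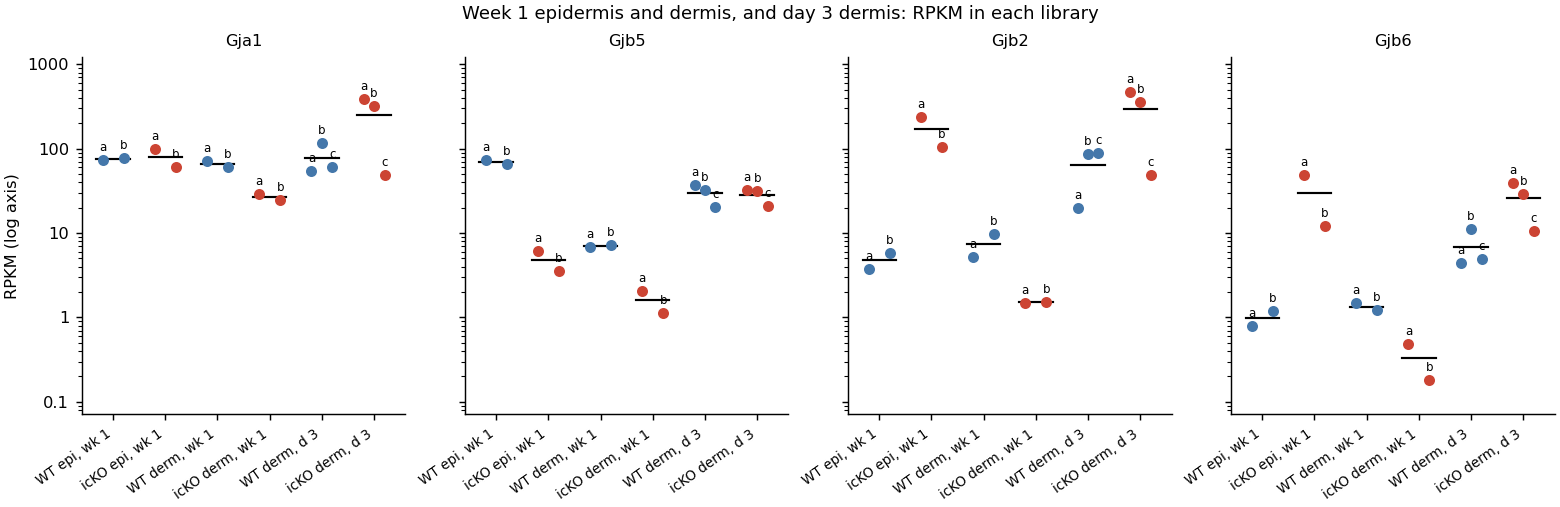
RPKM on a log axis for each gene in each library of week 1 epidermis and dermis (epi, derm, wk 1) and of day 3 dermis (d 3), with blue for WT, red for icKO and a line at the group mean. In week 1 epidermis Gjb2 reaches 240 and 103 RPKM in icKO against 3.74 and 5.85 RPKM in WT, whereas in week 1 dermis all 4 genes lie lower in icKO; levels of different tables are not to be compared as tests.

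In week 1 dermis all 4 genes fell, against 49.3% of 12744 genes called and 40.9% called lower (8.41% higher, that is 1072 genes higher and 5210 lower, or 2190 and 2222 after quantile normalization). Gja1 was at 72.2 and 61.0 RPKM in WT and at 29.2 and 25 RPKM in icKO libraries, with a change of -1.27 ± 0.15 on the log2 scale (adjusted p = 0.00219, limma). Gjb2 was at 5.19 and 9.84 RPKM in WT and at 1.5 and 1.53 RPKM in icKO libraries (change -1.70 ± 0.27, adjusted p = 0.00397). Gjb5 was at 6.81 and 7.31 RPKM in WT and at 2.07 and 1.12 RPKM in icKO libraries (change -1.66 ± 0.21, adjusted p = 0.00237). In each case both icKO libraries lay below both WT libraries, which is a weak criterion with 2 libraries per group.

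Gjb6 in week 1 dermis was at 1.47 and 1.21 RPKM in WT and at 0.483 and 0.183 RPKM in icKO libraries, the lowest levels of the 4. It met the filter of 1 RPKM only through its WT libraries, the group in which it was higher. The change was -0.82 ± 0.17 (adjusted p = 0.00894, limma), or -1.82 with a pseudocount of 0.1 RPKM, but it did not pass in a fit of all 8 week 1 libraries (0.229) or without icKO library b (0.105). Keratinocyte content also differed between these libraries: 5 basal genes had a mean log2 level of 7.0 and 7.06 in WT and of 5.43 and 4.72 in icKO dermis, and hair genes were at 4.74 and 5.04 against 0.97 and 1.25. Endothelial genes, which mark cells with connexins of their own, were at 4.67 and 4.73 against 3.55 and 3.36. The part of these differences in the connexin changes was not tested.

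The genotype effect differed between the 2 tissues at week 1 for all 4 genes. In the tissue by genotype interaction, 32.5% of 13539 genes were called (15.3% higher and 17.2% lower), and the difference (epidermis minus dermis) was 6.50 ± 0.60 for Gjb2 (adjusted p = 0.000738), 4.51 ± 0.74 for Gjb6 (0.0049), -1.95 ± 0.36 for Gjb5 (0.00762) and 1.30 ± 0.33 for Gja1 (0.0224, limma). Gjb2 and Gjb6 moved in opposite directions in the tissues, whereas Gjb5 fell in both and fell more in epidermis. With a pseudocount of 0.1 RPKM the differences were 7.21 for Gjb2 and 6.34 for Gjb6. The Gja1 call was lost without a filter on low values (0.0509), after quantile normalization (0.057) and in 5 of 8 fits with 1 library left out.

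In WT skin at week 1, Gjb5 was the connexin of the 4 that marked epidermis. It was 3.11 ± 0.25 higher in epidermis than in dermis on the log2 scale, or 8.65-fold (adjusted p = 3.82e-05, limma), and was the 1 gene of 4 called, against 59.3% of 13108 genes (25.5% higher and 33.9% lower in epidermis, that is 3338 and 4439 genes, or 4514 and 3644 after quantile normalization). Gja1 differed by 0.18 ± 0.23 (adjusted p = 0.539), Gjb2 by -0.52 ± 0.42 (0.31) and Gjb6 by -0.25 ± 0.52 (0.705). In WT epidermis the order of levels was Gja1, Gjb5, Gjb2 and Gjb6, with the lowest Gja1 library (73.3 RPKM) barely above the highest Gjb5 library (72.6 RPKM), so this pair did not differ beyond the spread of the libraries. In icKO epidermis it was Gjb2, then Gja1, then Gjb6, then Gjb5, with every library of a gene above every library of the next.

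**Figure D3:**
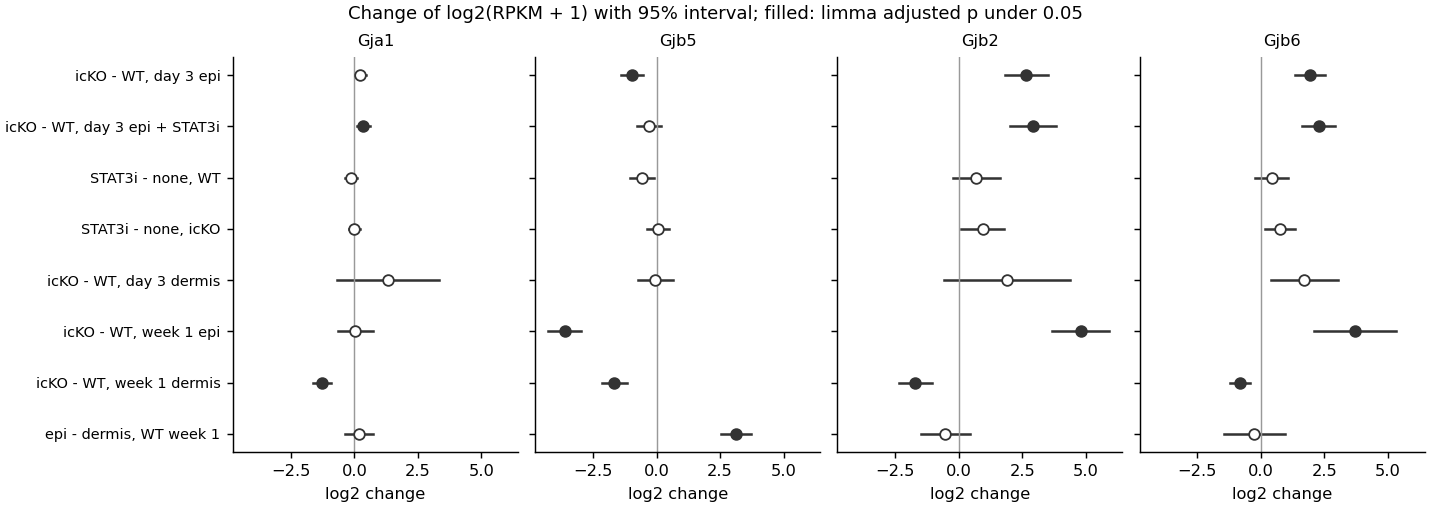
Changes of log2(RPKM + 1) for each gene in 8 comparisons, with points at the limma estimate and lines for its 95% interval; filled points had an adjusted p under 0.05. Gjb2 and Gjb6 lie to the right in epidermis at both times and to the left in week 1 dermis, Gjb5 lies to the left in epidermis without inhibitor and at week 1, and Gja1 lies between 0.04 and 0.36 for icKO against WT in epidermis.

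The share of each gene in the summed RPKM of the 20 connexins shows how far the make-up shifted. In week 1 epidermis Gjb2 made up 1.14% and 1.90% of connexin RPKM in WT and 52.9% and 44.2% in icKO libraries. The share of Gjb5 was 22.1% and 21.1% in WT and 1.35% and 1.54% in icKO libraries. The sum of all connexins was 328 and 308 RPKM in the WT libraries and reached 454 and 234 RPKM in the icKO libraries, 1 above and 1 below WT. In day 3 epidermis without inhibitor, Gjb2 held 0.92% to 5.72% of connexin RPKM in WT and 7.11% to 13.6% in icKO libraries, and Gjb5 held 10.6% to 20.5% and 5.15% to 8.71%. The share of Gja1 was 27.1% to 39.5% in WT and 29.5% to 36.2% in icKO libraries, so these overlapped.

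**Figure D4:**
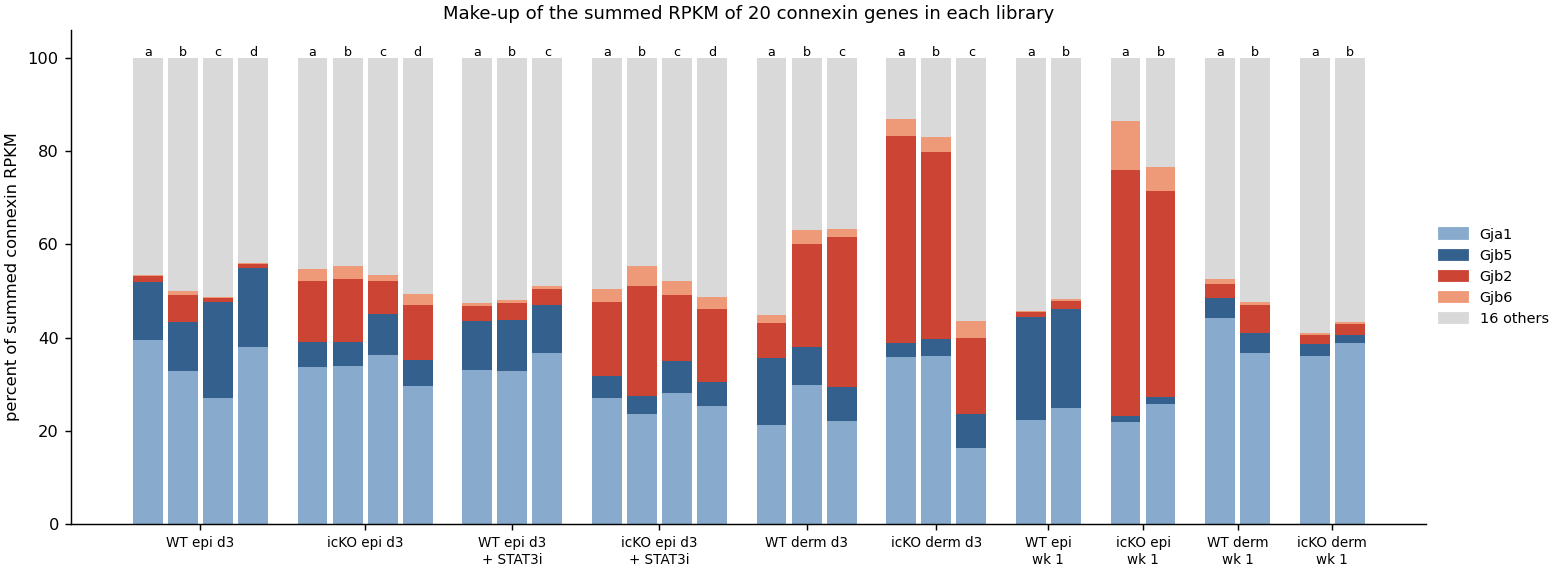
Percent of the summed RPKM of 20 connexin genes contributed by each of the 4 genes and by the 16 others in each of the 29 libraries, with letters naming libraries (epi, epidermis; derm, dermis; d3, day 3; wk 1, week 1). The Gjb2 part (red) grows from 1.14% and 1.90% to 52.9% and 44.2% in week 1 epidermis while the Gjb5 part (dark blue) shrinks from 22.1% and 21.1% to 1.35% and 1.54%.

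Gjb2 and Gjb6 kept nearly the same proportion while both levels ranged widely. In the 15 day 3 epidermis libraries Gjb2 ranged from 2.05 to 89.4 RPKM and Gjb6 from 0.307 to 15.7 RPKM, and the ratio of Gjb2 to Gjb6 stayed between 4.41 and 6.84. Of the 13117 genes with a mean of at least 1 RPKM, Gjb6 had the pattern most like that of Gjb2 (Pearson r = 0.993 over 15 libraries), and Gjb2 the one most like that of Gjb6. The 15 libraries fall into groups between which both genes differ, so r is a description. In the other tables the ratio of Gjb2 to Gjb6 was 4.43 to 17.9 in day 3 dermis and 3.10 to 8.45 at week 1. The longest run of identical bases between the annotated transcripts of Gjb2 and Gjb6 was 20 bases. Gjb6 had 2 listed transcripts in the transcript tables, of which NM_001010937 gave 81.7% to 98.8% of its RPKM.

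**Figure D5:**
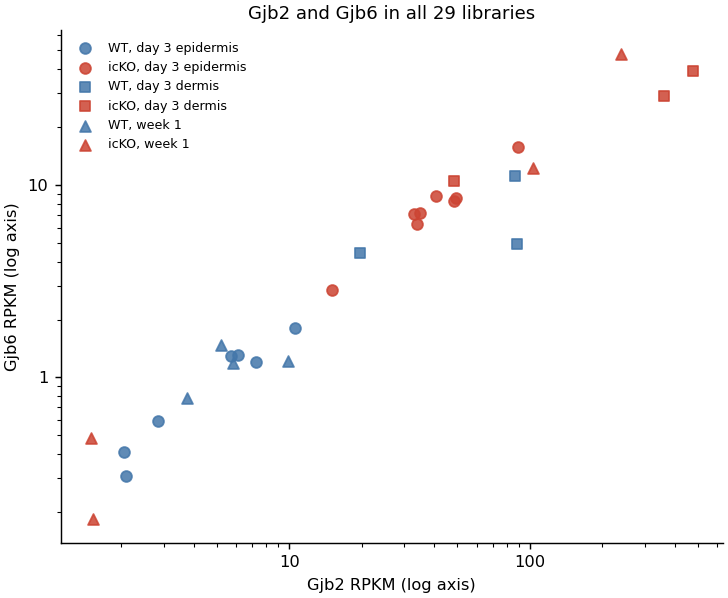
Gjb6 RPKM against Gjb2 RPKM on log axes in all 29 libraries, with blue for WT, red for icKO, circles for day 3 epidermis, squares for day 3 dermis and triangles for both week 1 tissues. The day 3 epidermis libraries lie along 1 line, with ratios of Gjb2 to Gjb6 between 4.41 and 6.84.

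Other genes followed the members across the 15 day 3 epidermis libraries. After Gjb6, the genes most like Gjb2 were Gm5416 (r = 0.988), the serpin gene Serpinb3a (0.987), the retinol-binding protein gene Rbp2 (0.986) and the protease gene Prss27 (0.985). After Gjb2, those most like Gjb6 were Rbp2 (0.988), Prss27 (0.986), the tenascin C gene Tnc (0.986) and the gasdermin gene Gsdma (0.985). Those most like Gjb5 were Oas1f (0.977), the acute-phase gene Orm1 (0.971), the sulfotransferase gene Gal3st1 (0.966), the basal keratin gene Krt15 (0.963) and Dgcr6 (0.956). For Gja1 they were Uso1 (0.923), Lrp12 (0.921), Rcn1 (0.892), Tmem68 (0.871) and Aff4 (0.869), all of which ranged less than 2-fold. Between members, r was -0.84 for Gjb2 and Gjb5 and 0.60 for Gja1 and Gjb2.

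Some of the 16 other connexins moved as well. In week 1 epidermis 4 of 5 tested fell, where 43.6% of all genes were called lower. Gjc3 changed by -0.67 there (adjusted p = 0.0371, limma), near the median of -0.50 over all genes. In week 1 dermis, where 40.9% of all genes were called lower and 8.41% higher, 7 of 9 tested fell, among them the vascular connexins Gja4 (-1.38, adjusted p = 0.00215) and Gja5 (-1.0, 0.00572), and Gje1 rose by 1.65 (0.00428). Between WT tissues at week 1, 25.5% of all genes were called higher in epidermis and 33.9% lower. Of the 9 other connexins tested, 3 were higher and 5 lower, among the latter Gja4, Gja5 and Gjc1 with changes of -3.64, -3.09 and -2.37. Over the 15 day 3 epidermis libraries, Gja4 ranged from 4.53 to 8.87 RPKM, Gja5 from 1.06 to 2.80, Gjc1 from 2.28 to 3.67 and Gjc3 from 1.18 to 2.32 RPKM, all far below Gja1. Gjb1 stayed at or below 0.726 RPKM there, and Gja10, Gjd2 and Gjd4 at or below 0.0142 RPKM.

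Pannexins form related channels that do not dock between cells. Of 2 tested, Panx3 rose in icKO epidermis with the inhibitor by 1.02 ± 0.19 (adjusted p = 0.00136), and neither was called without it (unadjusted p under 0.05 for 1). The list of proteins that bind or position connexins had 9 tested members at day 3. None was called without inhibitor in limma (unadjusted p under 0.05 for 3), where 12.8% of all genes were. With it 4 rose, where 19.9% of all genes were called higher, among them Ezr, the membrane linker ezrin (0.70, adjusted p = 0.000534). The median of the 9 was 0.08 against 0.02 for all genes. In week 1 epidermis, where 43.6% of all genes were called lower, 4 of 7 fell and none rose, including the adherens junction cadherin Cdh1 (-1.01, adjusted p = 0.00566), Cav1 of caveolae (-1.64, 0.00297) and Cnst, which carries connexins to the membrane (-1.86, 0.00258); their median was -0.57 against -0.50 for all genes.

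Tight junction genes, which seal the upper epidermis, moved at week 1 in the direction of Gjb5. All 10 tested of the 11 on the list fell in icKO epidermis, where 43.6% of all genes were called lower. Their median was -1.96 against -0.50 for all genes. Cgn (cingulin) changed by -3.42 (adjusted p = 0.00132, limma), Cldn23 by -3.77 (0.00167) and Cldn8 by -2.09 (0.00185). At day 3 without inhibitor 3 of 10 fell, where 3.70% of all genes were called lower and 9.12% higher. The changes were -1.17 for Cldn23, -1.11 for Cgn and -0.80 for Marveld2, and Cldn4 rose by 0.43 (adjusted p = 0.0181, limma). With the inhibitor Cldn4 and F11r rose and none of the 10 fell, against 19.9% of all genes called higher and 14.1% lower. In WT skin at week 1 all 10 were higher in epidermis than in dermis, as were Gjb5 and 25.5% of all genes.

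The authors' deposited table for day 3 epidermis gave ratios of icKO to WT for each gene without replicate values. Its ratio without inhibitor was 7.95 for Gjb2, 7.70 for Gjb6, 0.50 for Gjb5 and 1.18 for Gja1, with the authors' deposited q-values of 0.0140, 0.0129, 0.0302 and 0.174. With the inhibitor the authors' deposited ratios were 8.45, 7.31, 0.797 and 1.29. The authors' deposited week 1 ratios in epidermis were 33.7 for Gjb2, 25.8 and 26.2 for the 2 transcripts of Gjb6, 0.0683 for Gjb5 and 1.03 for Gja1. None of these ratios was formed on log2(RPKM + 1), so their sizes are not like for like with the fitted changes.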

How the data were processed

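RNA-seq libraries of mouse epidermis and dermis were grouped by sample title; in 2 of 29 samples, both of week 1 epidermis, the genotype field disagreed with the title, and the title was followed. Library letters are names only, and nothing in the sources used here says that libraries of a group came from separate animals, so p-values measure the spread between libraries, which may be technical. Per the file headers, reads were mapped to mm10 with Tophat (TopHat2 2.1.0 in the submitters' processing notes) and RPKM values were calculated by the authors in Partek, per gene for day 3 epidermis and per transcript for the other tables; the headers of the week 1 comparison tables name mm9. The authors' deposited tables also hold ratios between groups and p-values with q-values from their own comparison, which were copied and not used in any test. No source used here gives the deleted exons of Dlx3, the annotation version or the strand setting.

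The 3 tables were normalized separately, so tests were made only within a table. Transcript RPKM were summed per gene after 832 exact duplicate entries of the day 3 dermis table were dropped. limma 3.58.1 (R 4.3.3) with an intensity trend was fitted to log2(RPKM + 1), for genes at 1 RPKM or more in at least as many of the compared libraries as the smallest compared group holds, with Benjamini-Hochberg adjustment over all genes tested and 0.05 as the threshold. The 4 groups of day 3 epidermis shared one fit, and week 1 tissues were fitted apart except for comparisons between them. Intervals are 95%. Tested on simulated data, the fit recovered 98.5% of genes changed by 2 on the log2 scale for day 3 epidermis without inhibitor (13126 genes), 79.5% for day 3 dermis (13043 genes) and 65.8% for week 1 epidermis (11450 genes). Calls among unchanged genes were 9, 17 and 6. The simulated libraries were independent, with no near-identical, mixed or mislabelled ones, and up to 200 genes with a mean log2 level above 2 were changed. These shares therefore do not give the power in the real libraries. The members and gene lists were chosen with earlier results of these data known. Named genes were the 4 members, the other connexins and pannexins, up to 3 genes of lowest adjusted p in the partner and tight junction lists, and the 5 genes most like each member. Some results for other connexins and partners are not reported here. Alternatives were a pseudocount of 0.1 RPKM, no filter, quantile normalization, no trend, the highest transcript, fits of fewer or more groups, a sex term, a keratinocyte covariate, each library left out, and 3 alternatives added after the data were seen. Without counts, whether icKO libraries a and b differ by more than sampling noise could not be tested, and they were averaged in an alternative. Promoter sequences are from RefSeq (GRCm38.p6).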

Additional observations from a re-analysis of the deposited data

Results flagged for a closer look

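In 3 of 12 groups of 4 day 3 epidermis libraries (3 groups for each of 4 genes), 1 library stood apart from the rest of its group. The same libraries serve for every gene, Gjb2 and Gjb6 moved together, and both icKO groups hold a pair of nearly identical libraries. No rate expected by chance can therefore be set beside this count. Gjb2 was at 10.6 RPKM in WT library b without inhibitor, above the other 3 WT libraries, and at 15 RPKM in icKO library c, below the other 3 icKO libraries. Gjb6 was at 15.7 RPKM in icKO library b with the inhibitor, above the other 3. The first library is the one with Dlx3 at 0.950 RPKM and the second is the one that held both Xist and Ddx3y; the part of either fact in the connexin values was not tested.

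The change between genotypes differed between epidermis and dermis at week 1 in limma's interaction term, by 6.50 for Gjb2, 4.51 for Gjb6, 1.30 for Gja1 and -1.95 for Gjb5 on the log2 scale. Route of tamoxifen and tissue cannot be told apart in it.

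Some changes had opposite signs in day 3 epidermis and week 1 dermis, with every icKO library on one side of every WT library. With 2 libraries per group at week 1 this is a weak criterion, and the share of all genes that meet it was not counted. In limma 40.9% of all genes were called lower in week 1 dermis. At day 3, 9.12% were called higher without the inhibitor and 19.9% with it. Gjb2 changed by 2.66 without and 2.91 with the inhibitor at day 3 and by -1.70 in week 1 dermis. Gjb6 changed by 1.95 and 2.27 at day 3 and by -0.82 in week 1 dermis. Gja1 changed by 0.36 with the inhibitor and by -1.27 in week 1 dermis. These differences between separately normalized tables were not tested.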

How the results depend on the processing

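Of the values for single genes under the alternatives, 667 kept their direction and side of the threshold, 25 lost the call, 11 gained one and 21 changed sign. In shared fits, leaving out a library of a group outside the comparison cannot alter the size of the change. Part of the 667 therefore kept their direction by design. Of the 4 genes, the number called in day 3 epidermis without inhibitor was 3, and 1 with the closest pair of each of 3 groups averaged. With WT library b and icKO library c left out, 3 were called for the inhibitor in WT and 1 in the interaction, against 0 and 0. Leaving out 1 library at a time gave 0 to 1 for the inhibitor in icKO, 0 to 2 for it in WT, 0 to 1 for the interaction and 0 to 3 for day 3 dermis. The count in week 1 epidermis moved too. Its calls, like those over all genes, were lost where the spread came from the icKO pair alone. They were kept where it came from the WT pair alone. The other counts stayed within 1.5 times.

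Signs changed for values near 0. For Gja1 with the inhibitor in icKO they were 0.02 (sex term), 0.00 (keratinocyte covariate), 0.02 (icKO libraries a and b averaged) and 0.03 (closest pairs averaged), and -0.04 to 0.03 with 1 library left out. For Gjb5 in that comparison they were -0.15 (covariate), and -0.03 to 0.16 with 1 library left out. In the interaction Gjb2 was -0.48 and Gjb6 -0.18 without WT library b and icKO library c, Gjb2 was -0.20 to 0.44 with 1 library left out, and Gjb6 was -0.08 with a pseudocount of 0.1 RPKM. Quantile normalization gave -0.01 for Gja1 in week 1 epidermis and 0.31 for Gjb6 between WT tissues. With 1 library left out, Gjb5 in day 3 dermis was -0.30 to 0.15 and Gja1 in week 1 epidermis -0.32 to 0.39. The cause was not tested.

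Over all genes, calls in day 3 epidermis without inhibitor were 1679, and 461 to 3091 with 1 library left out, 476 with icKO libraries a and b averaged, 41 with the closest pairs averaged and 3642 without WT library b and icKO library c. With the inhibitor they were 4496, and 450 to 6140 over the alternatives. For the inhibitor in icKO they were 727 and 21 to 1307, in WT 2480 and 55 to 3743, and for the interaction 290 and 0 to 1702. Day 3 dermis had 0 and up to 3192 with 1 library left out, week 1 epidermis 6524 and 0 to 9247, week 1 dermis 6282 and 2872 to 6629, and the tissue by genotype interaction 4403 and 1779 to 5900. No paired analysis was possible because the columns carry no replicate numbers. Without counts, the precision that depth gives to Gjb6, under 2 RPKM in every WT epidermis library, is unknown.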
